A study of Mus musculus with 12 samples.

Results

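The genotype difference after ischemia and reperfusion was measured in cultured primary microglia of the mouse, the phagocytes that reside in brain tissue, on 6 of the 12 arrays of the series. Arrays labelled TLR4 knockout (n = 3) were set against wild-type arrays (n = 3), unpaired. Cells of all 6 arrays had spent 24 h under hypoxic or hypoglycemic (ischemic) conditions and then 24 h back under normal oxygen and glucose, so the arrays show the state after recovery. The other 6 arrays, 3 of each genotype, held control cells kept 24 h under normal conditions and given the same 24 h reperfusion step. Each gene was represented by the brightest probe set that carries exactly 1 gene symbol, which gave 19938 genes, and 15273 of them were bright enough to test. Values are log2 signals, and differences are given as knockout-labelled minus wild type.

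The source name of the wild-type ischemia arrays reads as control conditions, while their titles and the series key place them under hypoxia, and the titles were followed. The extraction protocol speaks of myocytes where all other labels speak of microglia. The labels give neither the strain nor the age of the mice, do not describe how Tlr4 was altered, and leave it unsaid whether a group's arrays come from separate cultures or animals. The p-values therefore measure only the spread between these arrays, which may be technical. In these bulk samples, fewer cells of a type and less RNA per cell cannot be told apart.

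Tlr4 recognises bacterial lipopolysaccharide and molecules released by injured cells, and it signals along a pair of branches. The branch through the adaptor MyD88 leads to NF-kB and inflammatory cytokines, and the branch through the adaptor TRIF (gene Ticam1) leads to IRF3 and type I interferon. Secreted interferon binds its receptor on the same and on neighbouring cells, where a complex holding STAT2 and IRF9 binds interferon-stimulated response elements and switches on a large set of antiviral genes.

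The signal of Tlr4 itself did not separate the groups. Its 1 probe set read 8.93, 8.76 and 8.59 in knockout-labelled ischemia arrays 1 to 3 and 8.58, 9.02 and 8.54 in wild-type ischemia arrays 1 to 3. The ranges overlapped, and the means were 8.76 ± 0.17 and 8.71 ± 0.26 (SD, n = 3). The difference of 0.05 (95% interval from limma -0.31 to 0.40) gave an exact permutation p = 0.8 (two-sided; 3 arrays against 3 cannot go below 0.1). Signal from a region that the alteration leaves in place would not test the labels, so the arrays are called knockout-labelled, and every direction given here rests on the labels. Array medians ran from 6.3 to 6.4, arrays within an ischemia group correlated at 0.983 to 0.992 over all probe sets, and 0 pairs of arrays held identical values.

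After ischemia and reperfusion the knockout-labelled microglia had much less message for the antiviral interferon program, for the chemokine Ccl5 and for complement factor B, and only a few genes were higher. limma called 109 of 15273 genes at an adjusted p under 0.05 (0.714%), 99 lower (0.648%) and 10 higher (0.0655%) in the knockout-labelled arrays. Of the 99, 26 were lower by 2 or more on the log2 scale and 68 by 1 or more, and 3 of the 10 were higher by 1 or more. Over all genes tested the median difference was 0.01, 47.3% of differences were below 0, and 1276 genes (8.35%) had an unadjusted p under 0.05. The 3 arrays of each genotype did not overlap for any of the 109 called genes, against 16.5% of all genes tested (8.07% lower and 8.38% higher in the knockout-labelled arrays). The 109 were called on these same arrays, so their separation largely follows from the choice and adds no support.

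The number of calls changed when single arrays were left out. Such a fit has fewer arrays in 1 group and 1 spread per gene shared by all groups. Whether a call was lost through fewer arrays or through the array left out was not tested. Without knockout-labelled ischemia array 1, 2 or 3, limma called 25, 52 and 31 genes, and without wild-type ischemia array 1 it called 63, while leaving out any of the other 8 arrays gave 78 to 158. In all 12 of these leave-one-out fits 24 genes were called. At the edge of the threshold stood Tent4a (-0.74, limma adjusted p = 0.0478) and Gm1966 (-1.23, 0.0493) inside, and AB124611 (-0.74, 0.0505) and Birc3 (-0.55, 0.0519) outside.

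**Figure D1:**
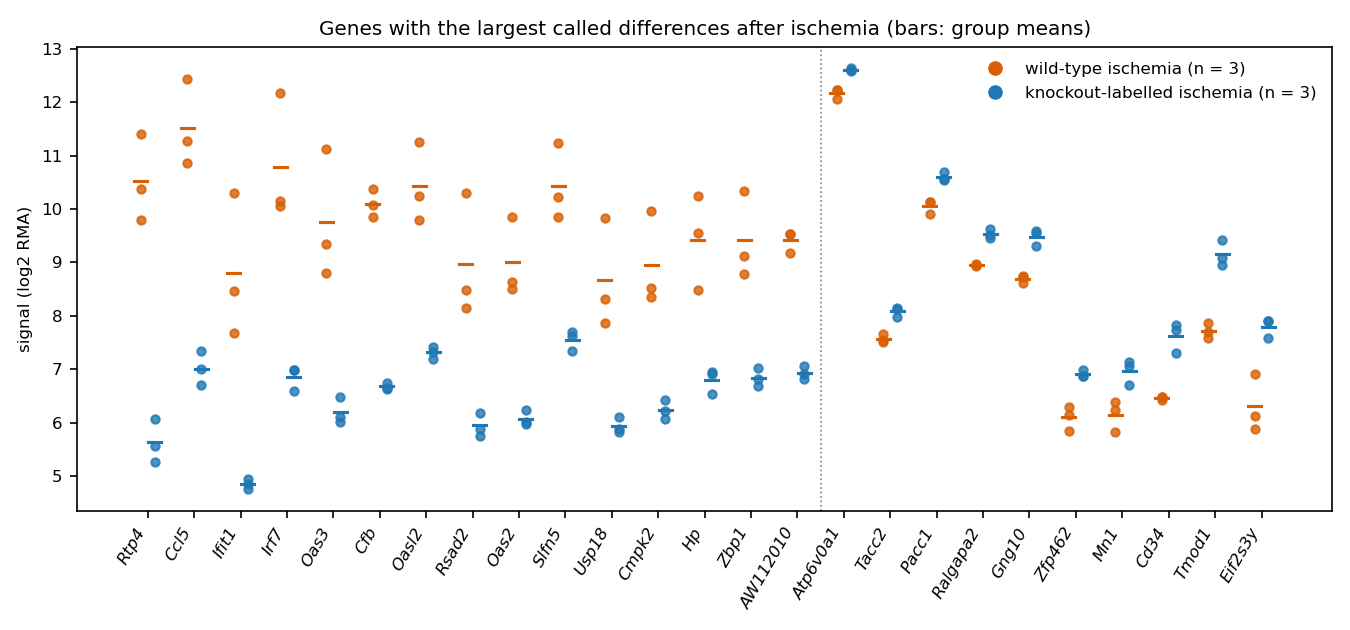
Signal (log2 RMA) of the 15 genes with the largest called falls and of all 10 genes called higher, in the 3 wild-type (orange) and 3 knockout-labelled (blue) ischemia arrays; points are arrays and short bars are group means. For each gene the colours do not overlap, and the orange points of most interferon genes spread widely, as for Irf7 at 10.05 to 12.18, while the blue points lie close together.

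Rtp4, an interferon-induced gene whose product chaperones receptors to the cell surface, had the largest difference. It read 5.27, 6.06 and 5.56 in the knockout-labelled arrays and 10.37, 11.41 and 9.79 in the wild-type arrays. Every wild-type array lay above every knockout-labelled array. The difference of -4.90 (SE 0.67, limma adjusted p = 0.00574) is a 29.8-fold lower signal. Its lowest knockout-labelled reading, 5.27, lay below 5.36, the mean signal under which genes were left out as dim. The size of this fold is therefore approximate. Ccl5, a chemokine that draws T cells and monocytes, read 7.0, 7.34 and 6.70 against 10.86, 12.43 and 11.28. It was 22.8-fold lower (-4.51, SE 0.45, limma adjusted p = 0.000615). Cfb, factor B of the alternative complement pathway, read 6.75, 6.64 and 6.65 against 10.07, 10.38 and 9.86, with little spread in either group. Its difference of -3.42 (SE 0.22) had the smallest limma adjusted p of all genes, 2.58e-05. AW112010, a transcript induced in inflamed immune cells, followed with readings of 6.82, 7.06 and 6.92 against 9.54, 9.53 and 9.17 (-2.48, SE 0.18, limma adjusted p = 6.83e-05). Each of these 4 genes was called in all 12 leave-one-out fits.

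The interferon-stimulated genes were lower as a body. Of 48 members on the array 4 were too dim to test. All 44 others were lower in the knockout-labelled arrays, and 23 fell in limma (0.648% of all genes did). In all 44 the groups did not overlap (8.07% of all genes in that direction). Ifit1, Mx1 and Mx2, described below, lay under the limit for dim genes, 5.36, in every knockout-labelled ischemia array. A member that passed the filter only through the wild type would count as lower for that reason alone. The counts and the median were not taken again without such members. Their median difference was -1.88, against 0.01 over all genes, and single members ran from -4.90 for Rtp4 to -0.37 for Oasl1. The list mean was 7.27, 7.46 and 7.34 in the knockout-labelled arrays and 9.20, 10.40 and 8.85 in the wild-type arrays. Wild-type array 2 was the highest of the 3 wild-type ischemia arrays in all 44 members, and the wild-type control array 2 was likewise the highest of its group in all 44. The median SD of a member was 0.16 among knockout-labelled arrays and 0.75 among wild-type arrays. The fit uses 1 shared spread per gene, so its p-values do not reflect this inequality. Without wild-type ischemia array 2 the median was -1.48 and 15 members were called. The number called was 3, 11 and 3 without knockout-labelled ischemia array 1, 2 or 3, 13 without wild-type ischemia array 1 and 37 without wild-type control array 2. Called in every leave-one-out fit were 2 of the 44, Rtp4 and Lgals3bp, a secreted galectin ligand (-1.60, limma adjusted p = 0.00136).

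Several antiviral effectors of the list fell. Ifit1, whose product binds viral RNA with foreign caps, read 4.75, 4.95 and 4.85 in the knockout-labelled arrays, all below the 5.36 used as the limit for dim genes, and 8.46, 10.30 and 7.67 in the wild-type arrays. It passed the filter only through the wild type, so its level in the knockout-labelled arrays is a bound, and the wild-type mean of 8.81 lay at least 10.9-fold above that limit. limma called it (adjusted p = 0.0161, and 0.0647 to 0.0992 without any 1 of the knockout-labelled ischemia arrays). Among the oligoadenylate synthetases, which make the messenger that activates RNase L, and their relatives, 4 fell: the differences were -3.56 for Oas3, -2.93 for Oas2, -1.91 for Oas1a and -3.12 for the synthetase-like Oasl2, while Oasl1 (-0.37) did not pass. Their limma adjusted p ran from 0.00828 to 0.0127 and rose to between 0.0610 and 0.0796 without knockout-labelled ischemia array 1. Without knockout-labelled ischemia array 3, Oas2, Oas3 and Oasl2 were not called either (limma adjusted p = 0.0532 to 0.0727). Probe sets of such related genes may share targets, which was not tested.

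Rsad2 (viperin), which blocks the replication of many viruses, read 5.89, 6.19 and 5.76 against 8.48, 10.30 and 8.15. It was lower by -3.03 (SE 0.58, limma adjusted p = 0.0328, called in 5 of 12 leave-one-out fits). Its neighbour in function Cmpk2, a mitochondrial nucleotide kinase, fell by 2.71, and the growth-restraining Slfn5 by 2.88. Usp18, the protease that quietens the interferon receptor, read 5.88, 6.10 and 5.82 against 8.31, 9.83 and 7.86 (-2.73, SE 0.49, limma adjusted p = 0.0241). Cmpk2 and Usp18 were not called without any 1 of the knockout-labelled ischemia arrays or wild-type ischemia array 1 (limma adjusted p = 0.0525 to 0.133), nor Cmpk2 without wild-type ischemia array 2 (0.0566) or Slfn5 without knockout-labelled ischemia array 3 (0.0505).

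Large differences that did not pass went the same way. Ifit3 (-3.86, SE 0.96, limma adjusted p = 0.120), Ifit2 (-3.84, SE 0.84, 0.0650) and the antiviral dynamin-like GTPases Mx1 (-2.45, SE 0.72, 0.243) and Mx2 (-2.39, SE 0.52, 0.0650) were spread widely in the wild type. Ifit2, for example, read 5.34, 5.68 and 5.17 in the knockout-labelled arrays against 8.76, 11.05 and 7.90. The groups did not overlap for these 4 genes, Mx1 and Mx2 lay below the limit for dim genes in every knockout-labelled ischemia array, and the wild-type readings of Ifit2 spanned more than 3 log2 units.

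**Figure D2:**
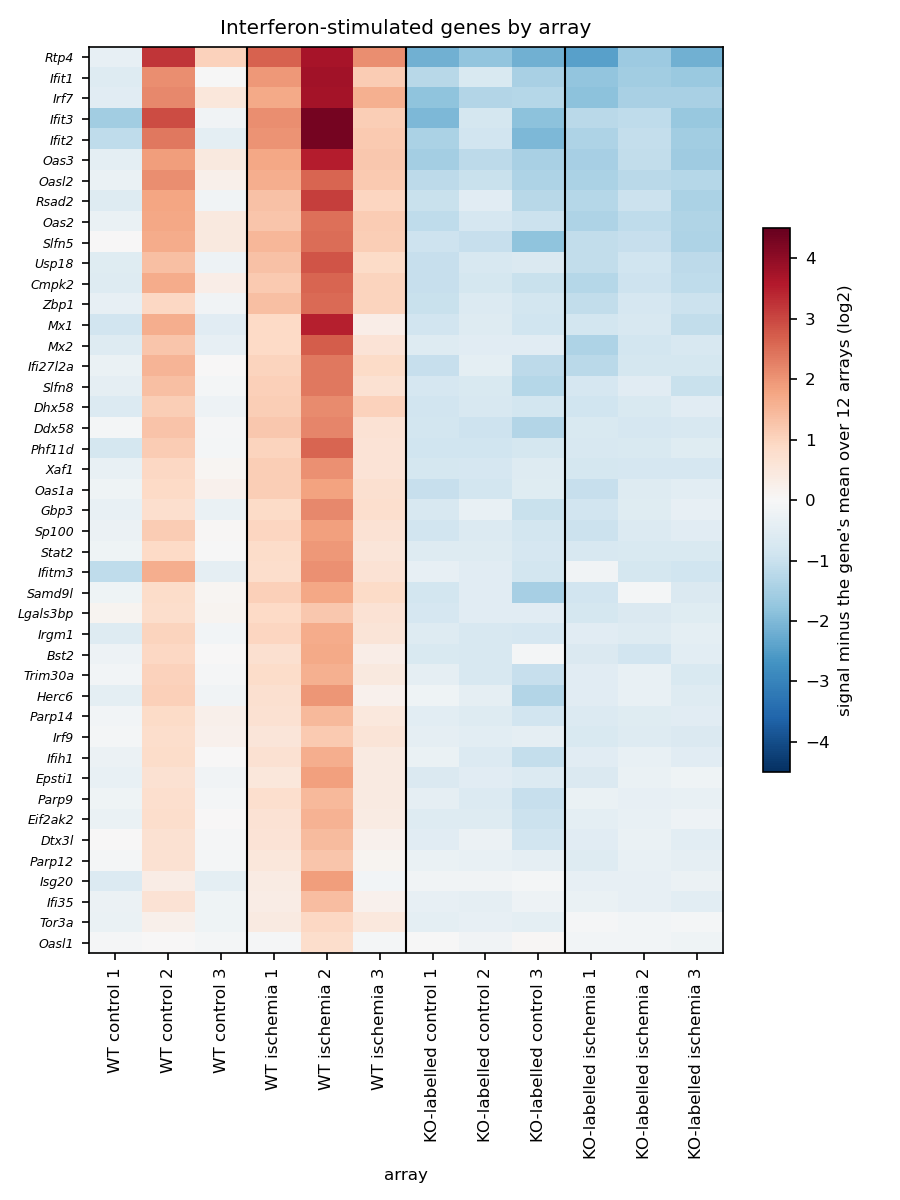
Signal of the 44 tested interferon-stimulated genes in all 12 arrays, as the difference from each gene's mean over the 12 arrays (log2; red higher, blue lower), ordered by the difference after ischemia. The 3 wild-type ischemia columns are red with array 2 the darkest, wild-type control array 2 is also red, and the 6 knockout-labelled columns are blue in nearly every row.

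Nucleic acid sensors of the list also fell. Zbp1, a sensor of Z-form nucleic acids that can start necroptosis, read 6.69, 7.02 and 6.82 against 9.13, 10.34 and 8.78 (-2.58, SE 0.37, limma adjusted p = 0.00693). Without knockout-labelled ischemia array 1 or 3 it was not called (limma adjusted p = 0.0601 and 0.0501). Ddx58, which encodes the RNA sensor RIG-I, fell by 2.08, and Dhx58, which encodes its relative LGP2, by 2.12 (limma adjusted p = 0.0254 and 0.0228). Neither was called without any 1 of the knockout-labelled ischemia arrays or wild-type ischemia array 2 (limma adjusted p = 0.0539 to 0.133). Ddx58 was also lost without wild-type ischemia array 1 or knockout-labelled control array 2. The third member of that family, Ifih1 (MDA5), read 8.59, 8.76 and 8.59 against 9.79, 10.74 and 9.51 and did not pass (-1.37, limma adjusted p = 0.0869).

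Promoters were searched for the element through which interferon acts. The 250 bases before the annotated start were searched on both strands for the core of the interferon-stimulated response element, which is GAAA, any 2 bases and GAAA again, in the RefSeq promoter table (GRCm38.p6), which held 88 of the 109 called genes. A match was found in 19 of 80 genes called lower (23.8%), in 372 of 12054 tested genes with a promoter (3.09%) and in 936 of all 27025 genes of the table (3.46%). It was found in 7 of 16 interferon-list genes called lower, and in 12 of 33 (36.4%) over the whole tested interferon list, called or not. Outside that list it was found in 12 of 64 genes called lower, and in 0 of 8 genes called higher. A longer form with a C at the end, whose matches are all matches of the shorter one, occurred in 8 of 80 genes called lower and 0.780% of tested genes. For comparison, a loose NF-kB core (GGG, any 5 bases and CC) occurred in 53 of 80 (66.3%) and 64.0%. Some genes have several promoters, and a gene counts where any of them matches. A match describes the letters only and is not a measured binding site.

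Promoters of 5 of the 19 genes with a match, and of Irf7, which has none in this window, are shown 5′ to 3′ with the matched bases in capitals (TTTC runs are the same element on the other strand). They show where the element lies: the nearest match ends 76 bases before the start in Ifit1, 66 in Oas3, 111 in Rsad2, 5 in Oas1a and 30 in Gbp3, and in Slfn5, not printed, it ends 146 bases before. Ifit1, Oas1a and Gbp3 hold 2 matches each, which overlap in Oas1a and Gbp3. The windows are chr19:34640639-34640888 (+) for Ifit1, chr5:120777660-120777909 (-) for Oas3, chr12:26456453-26456702 (-) for Rsad2, chr5:120907526-120907775 (-) for Oas1a, chr3:142559794-142560043 (+) for Gbp3 and chr7:141266425-141266674 (-) for Irf7.
Ifit1: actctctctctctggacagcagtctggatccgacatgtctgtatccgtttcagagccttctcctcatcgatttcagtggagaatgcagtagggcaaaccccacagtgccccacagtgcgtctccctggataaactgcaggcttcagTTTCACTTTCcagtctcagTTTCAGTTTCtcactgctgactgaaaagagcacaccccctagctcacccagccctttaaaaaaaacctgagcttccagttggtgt
Oas3: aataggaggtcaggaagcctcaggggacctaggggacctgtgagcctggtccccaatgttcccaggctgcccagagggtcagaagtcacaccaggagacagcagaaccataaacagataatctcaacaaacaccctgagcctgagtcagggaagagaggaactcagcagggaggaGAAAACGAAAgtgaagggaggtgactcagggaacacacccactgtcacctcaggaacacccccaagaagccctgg
Rsad2: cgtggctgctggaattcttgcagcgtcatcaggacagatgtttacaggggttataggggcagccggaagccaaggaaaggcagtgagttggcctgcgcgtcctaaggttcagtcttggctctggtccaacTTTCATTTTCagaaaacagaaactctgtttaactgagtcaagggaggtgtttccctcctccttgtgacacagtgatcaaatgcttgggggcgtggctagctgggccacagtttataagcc
Oas1a: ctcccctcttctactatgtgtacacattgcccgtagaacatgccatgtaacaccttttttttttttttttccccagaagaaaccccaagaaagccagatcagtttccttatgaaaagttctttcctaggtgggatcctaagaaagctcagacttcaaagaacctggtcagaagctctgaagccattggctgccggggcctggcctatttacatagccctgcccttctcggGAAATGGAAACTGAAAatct
Gbp3: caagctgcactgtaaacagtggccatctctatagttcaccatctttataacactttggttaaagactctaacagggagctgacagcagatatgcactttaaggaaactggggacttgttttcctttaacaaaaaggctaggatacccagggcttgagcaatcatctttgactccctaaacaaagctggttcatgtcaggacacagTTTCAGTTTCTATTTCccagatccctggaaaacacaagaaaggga
Irf7: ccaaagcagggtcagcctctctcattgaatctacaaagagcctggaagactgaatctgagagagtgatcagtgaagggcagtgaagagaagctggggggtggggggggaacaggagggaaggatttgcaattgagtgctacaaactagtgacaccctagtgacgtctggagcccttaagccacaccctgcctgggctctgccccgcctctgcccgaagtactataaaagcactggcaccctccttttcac

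In the machinery that makes and senses interferon, the transcription factors that interferon itself induces were lower, while receptors and their kinases were near 0. Of 23 tested members 6 fell, 19 were lower and 4 higher, and the median was -0.17. Over all genes tested 0.648% were called lower, 47.3% were below 0 and the median was 0.01, which is the background for this list and for those that follow. Irf7, the factor that amplifies type I interferon production, read 6.60, 6.98 and 6.98 against 10.16, 12.18 and 10.05, a clean separation with wild-type array 2 on top. Its difference was -3.94 (SE 0.61, limma adjusted p = 0.0108, and 0.0751 and 0.0554 without knockout-labelled ischemia array 1 or 3). Stat2 fell by 1.80 and Irf9 by 1.39, the STAT and the DNA-binding partner of the factor that interferon activates (limma adjusted p = 0.0252 and 0.00828). Irf1, another factor induced by interferon, fell by 0.69 (0.0322). Stat2 was called in 7, Irf9 in 10 and Irf1 in 5 of the 12 leave-one-out fits. Ikbke, a kinase that activates IRF3 and IRF7, read 8.72, 9.07 and 8.81 against 9.99, 10.10 and 10.14 with little spread in either genotype (-1.21, SE 0.14, limma adjusted p = 0.00136, called in all 12 leave-one-out fits). Without knockout-labelled ischemia array 1, 2 or 3 the list held 1, 3 and 1 calls, and without knockout-labelled control array 2 it held 3.

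The receptor subunits Ifnar1 (-0.06, 95% interval -0.29 to 0.16) and Ifnar2 (-0.20), the kinases Jak1 (-0.14), Tyk2 (-0.17) and Tbk1 (-0.11), and Irf3 (-0.09, 95% interval -0.30 to 0.13) did not pass in limma. Ifnar1 read 9.55, 9.64 and 9.45 against 9.46, 9.72 and 9.63, so its groups overlapped. Ifnb1, the interferon gene on the list, was too dim to test.

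**Figure D3:**
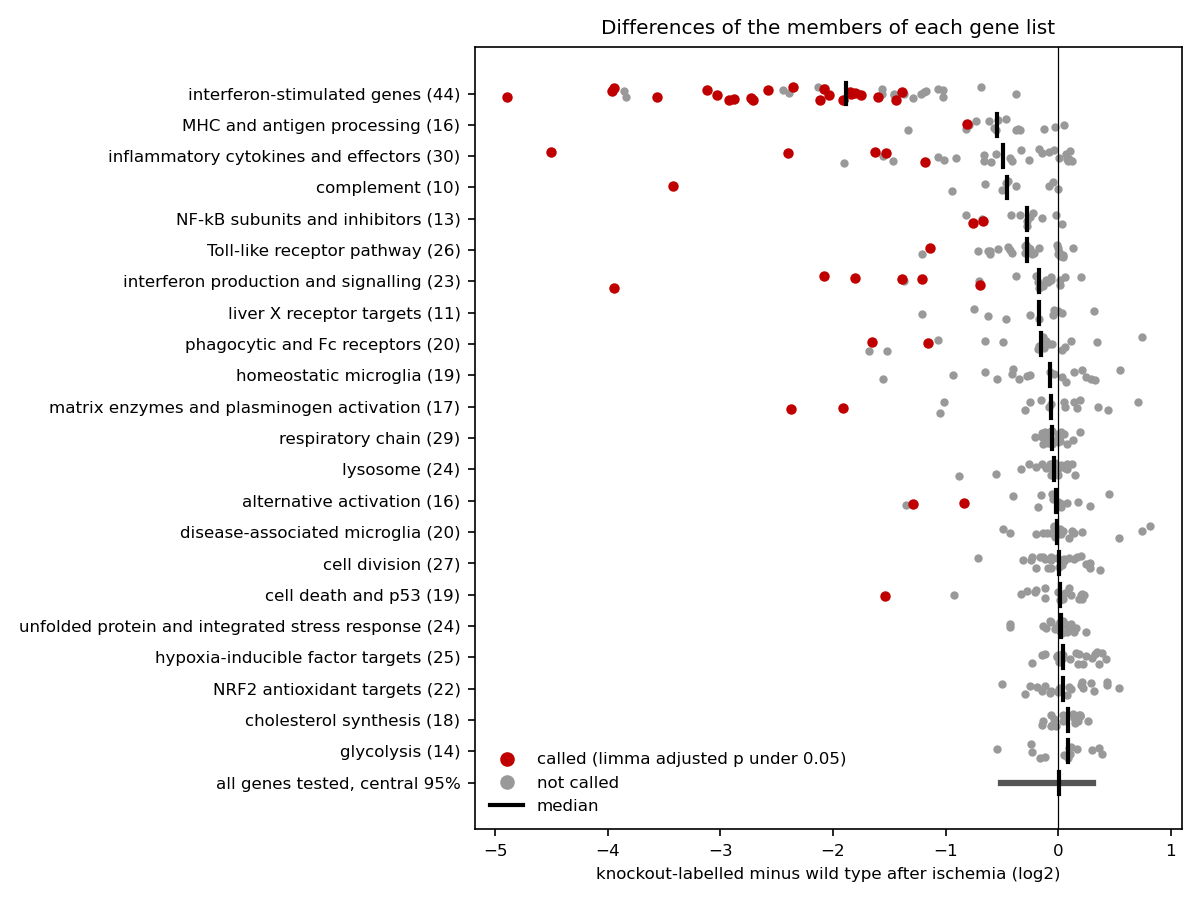
Knockout-labelled minus wild-type difference after ischemia (log2) of every tested member of 22 gene lists, with the number of members in parentheses; red points were called by limma, grey points were not, black bars are list medians, and the bottom row gives the central 95% of all genes tested (-0.51 to 0.31). The interferon-stimulated list stands far to the left with a median of -1.88, while lists such as glycolysis and cell division are centred near 0.

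Along the Toll-like receptor pathway 20 of 26 members were lower, with a median of -0.27, and 1 fell. Tlr2, the receptor for bacterial lipoproteins, read 8.25, 8.42 and 8.31 against 9.54, 9.37 and 9.49, tight in both groups and without overlap (-1.14, SE 0.11, limma adjusted p = 0.000584, called in all 12 leave-one-out fits). Tlr8, an RNA receptor (-1.21, limma adjusted p = 0.0690), the adaptor gene Myd88 (-0.40, 0.0719) and Irak3, an inhibitory kinase (-0.53, 0.0534), did not overlap between groups but did not pass. The adaptor gene Ticam1 (0.13, 95% interval -0.24 to 0.50) and the lipopolysaccharide co-receptor gene Cd14 (0.00) did not pass either. The list held 2 calls without wild-type ischemia array 2, without wild-type control array 2 and without knockout-labelled control array 3.

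Among the 13 NF-kB genes (median -0.28, 12 lower) the 2 called members both encode proteins of the IkB family. Nfkbia, the inhibitor IkB-alpha, read 8.95, 9.08 and 8.97 against 9.55, 9.79 and 9.93 (-0.76, SE 0.13, limma adjusted p = 0.0179). Bcl3, an atypical IkB protein, read 7.30, 7.42 and 7.43 against 7.99, 8.13 and 8.04 (-0.67, SE 0.12, limma adjusted p = 0.0231). The subunit gene Rela stood at -0.02 and did not pass, as did Relb at -0.42. The list held 0 calls without any 1 of the knockout-labelled ischemia arrays or without wild-type ischemia array 2 or 3, 1 without wild-type ischemia array 1, and 3 without knockout-labelled control array 2 or wild-type control array 2.

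Inflammatory effectors split: 5 of 30 fell, 23 were lower and the median was -0.49. In control cells the median was -0.43, with 27 of 30 lower and 2 called, and 16 of 30 were more negative after ischemia. Il1b and Tnf were lower without passing, while Ccl2, Ccl3, Nos2 and Il12b had estimates near 0, some with wide intervals. Acod1, whose enzyme makes the antimicrobial metabolite itaconate, read 6.4, 6.51 and 6.61 against 8.43, 9.17 and 9.12. The groups lay almost 2 log2 units apart at their closest, and the difference of -2.40 (SE 0.19) had a limma adjusted p = 0.000108. The acute-phase gene Saa3 (-1.63, SE 0.22, limma adjusted p = 0.00547), the iron-siderophore binder Lcn2 (-1.53, 0.0286) and Cxcl16, a membrane-bound chemokine (-1.18, 0.0185), completed the called members with Ccl5. Lcn2 and Cxcl16 were not called without any 1 of the knockout-labelled ischemia arrays or without wild-type ischemia array 2 or 3 (limma adjusted p = 0.0527 to 0.134), nor Lcn2 without knockout-labelled control array 2 (0.0539), and Acod1, Saa3 and Ccl5 were called in all 12 leave-one-out fits.

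The interleukin gene Il1b read 5.45, 5.69 and 5.57 against 7.37, 7.07 and 6.69, and its difference of -1.47 (SE 0.40) did not pass (limma adjusted p = 0.178). Neither did Cxcl10, an interferon-induced chemokine whose mean in the knockout-labelled arrays, 5.28, was below the limit for dim genes (-1.55, limma adjusted p = 0.256), nor Tnf (-0.55, 0.155). The monocyte chemokine Ccl2 (0.08, 95% interval -0.60 to 0.75), Ccl3 (0.12, -0.84 to 1.09), Nos2 (0.09) and Il12b (0.10) overlapped between the groups. Ccl3 was bright in every array, at 12.58, 11.79 and 11.11 against 11.56, 12.38 and 11.17, with no order between genotypes.

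Antigen-processing genes were lower in 15 of 16 tested members with a median of -0.54, and 1 fell. Tapbp, tapasin, which loads peptides onto class I molecules, read 10.94, 11.04 and 11.23 against 11.81, 11.93 and 11.89 (-0.81, SE 0.12, limma adjusted p = 0.0109). Without knockout-labelled ischemia array 1 or 2 it was not called (limma adjusted p = 0.0813 and 0.0563). The peptide transporter gene Tap1 (-1.33, limma adjusted p = 0.0535) and the immunoproteasome genes Psmb9 (-0.73, 0.0612) and Psmb8 (-0.82, 0.170) did not overlap between groups but did not pass. Class II genes H2-Aa (-0.57) and Cd74 (-0.79) did not pass. The list held 2 calls without wild-type control array 1, 3 without wild-type control array 2 and 0 without knockout-labelled ischemia array 1 or 2. Outside the list, the class I genes H2-M2, H2-T24 and H2-Q4 were also called lower. H2-M2 was called in all 12 leave-one-out fits. H2-T24 was lost without knockout-labelled ischemia array 1, and H2-Q4 without any 1 of the knockout-labelled ischemia arrays and some others.

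Of 10 complement genes, all 10 were lower with a median of -0.45, and Cfb alone passed. The classical pathway genes C1qa (-0.50), C1qb (-0.46) and C1qc (-0.37) and the alternative pathway gene Cfp (-0.94, limma adjusted p = 0.262) did not. That median rested on wild-type ischemia array 2 and was -0.15 without it, while Cfb was called in every leave-one-out fit.

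Receptors and matrix genes held scattered calls. Timd4, a receptor for phosphatidylserine on dying cells, read 5.89, 6.52 and 5.98 against 7.81, 7.49 and 8.07 (-1.66, SE 0.26, limma adjusted p = 0.0120), and with the activating antibody receptor gene Fcgr4 (-1.16, 0.0132) it made the 2 calls among 20 phagocytic and Fc receptors (median -0.15). Both were lost without knockout-labelled ischemia array 1 or 3 and Fcgr4 also without wild-type ischemia array 1. Lox, which cross-links collagen, read 6.54, 7.13 and 6.98 against 8.60, 8.90 and 8.88 (-1.91, SE 0.17, limma adjusted p = 0.000297). Mmp14, a membrane-bound matrix metalloproteinase, fell by 2.37 (SE 0.30, limma adjusted p = 0.00268), and these were the 2 calls among 17 matrix genes (median -0.06). Lox and Mmp14 were called in all 12 leave-one-out fits.

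Of 16 alternative-activation genes, Tgfbi, a matrix protein induced by TGF-beta, fell by 1.29 (SE 0.15, limma adjusted p = 0.00136) and Il10ra, the interleukin-10 receptor gene, by 0.84 (0.0132). Il10ra was not called without knockout-labelled ischemia array 1 or 3 (limma adjusted p = 0.0992 and 0.0718). The marker genes Arg1 (0.00) and Mrc1 (-0.15) did not pass, and the list median was -0.02. Mlkl, the executioner of necroptosis, read 7.14, 7.73 and 7.98 against 9.06, 9.62 and 8.79 (-1.54, SE 0.23, limma adjusted p = 0.00770) and was the only call among 19 cell death genes, whose median was 0.02.

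No member was called in 11 other lists. They were homeostatic microglia (19 tested, median -0.07), disease-associated microglia (20, -0.01), hypoxia-inducible factor targets (25, 0.04), glycolysis (14, 0.09), respiratory chain (29, -0.05), cholesterol synthesis (18, 0.09), liver X receptor targets (11, -0.17), NRF2 antioxidant targets (22, 0.05), the unfolded protein response (24, 0.03), cell division (27, 0.01) and lysosome (24, -0.03). Several of these small medians changed with wild-type ischemia array 2: without it they were 0.032 for homeostatic and 0.016 for disease-associated microglia, -0.038 for cholesterol synthesis, -0.082 for NRF2 targets and -0.013 for the unfolded protein response, each of the other sign, 0.0010 for glycolysis, 0.090 for hypoxia-inducible factor targets, 0.12 for cell division and -0.097 for lysosome. Vegfa, a hypoxia target, stood at 0.42 (95% interval 0.18 to 0.67, limma adjusted p = 0.167). Aif1, which encodes the microglial marker Iba1, stood at -1.55 (limma adjusted p = 0.244) and Cx3cr1, the fractalkine receptor gene, at -0.94 (0.577). On the other side Itgax, an integrin gene of disease-associated microglia, read 12.22, 11.95 and 11.90 against 11.22, 11.38 and 11.24 (0.74, limma adjusted p = 0.116).

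Of the 109 called genes 67 belonged to no pathway list, and the lower ones named here, apart from AW112010 and Hp, were chosen after their values were seen. Hp, haptoglobin, which captures free haemoglobin, read 6.91, 6.54 and 6.95 against 9.56, 8.49 and 10.24, and here wild-type array 2 was the lowest of its group. It fell by 2.63 (SE 0.42, limma adjusted p = 0.0132, and 0.0544 to 0.0746 without any 1 knockout-labelled ischemia array or wild-type ischemia array 1). Ly6e, an interferon-induced membrane protein that alters virus entry, fell by 2.48 (limma adjusted p = 0.00136). Aoah, the enzyme that detoxifies lipopolysaccharide by removing acyl chains, fell by 1.77 (0.00268). Gpr84, a receptor for medium-chain fatty acids on activated myeloid cells, fell by 1.32 (0.000584). These last 3 were called in all 12 leave-one-out fits, as were Helz2 (-1.69), Enpp4 (-1.67), Vnn3 (-1.28), Cpne8 (-1.07) and Tent5a (-0.87).

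The genes called higher were few and the differences smaller. Tmod1, which caps actin filaments, read 9.09, 8.95 and 9.42 in the knockout-labelled arrays against 7.59, 7.70 and 7.87 in the wild type (1.43, SE 0.16, limma adjusted p = 0.00136). Cd34, a sialomucin of progenitor and endothelial cells, read 7.82, 7.73 and 7.31 against 6.43, 6.49 and 6.48 (1.16, SE 0.16, limma adjusted p = 0.00600). These 2 were the only higher genes called in all 12 leave-one-out fits. The other members with a known role were Mn1, a transcriptional cofactor (0.82), Gng10, a G protein subunit (0.79), Ralgapa2, which switches off Ral GTPases (0.58), Pacc1, an acid-gated chloride channel (0.55), and Atp6v0a1, a proton pump subunit (0.44), with Zfp462 at 0.82 and Tacc2 at 0.51. Their limma adjusted p ran from 0.0218 to 0.0454, and none of these 7 was called without knockout-labelled ischemia array 1 or 3 or without wild-type ischemia array 1 or 3 (0.133 to 0.238 without the first of these). Of the 10 genes 3 (Tmod1, Zfp462 and Gng10) lie on chromosome 4, as does Tlr4, and so do 6 of the 99 genes called lower and 6.3% of the genes tested.

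The remaining higher gene, Eif2s3y, is a translation factor gene of the Y chromosome. It read 7.59, 7.91 and 7.90 against 6.12, 6.91 and 5.89 (1.5, SE 0.30, limma adjusted p = 0.0421, called in 3 of 12 leave-one-out fits). Other sex-linked genes were looked up after that value was seen: the Y-linked Kdm5d (0.75) and Uty (0.80) and the X-inactivation transcript Xist (-0.63) did not pass. Wild-type array 2 had the highest Y-linked signals of its group, with Uty at 7.30 against 6.18 and 5.61. The sex of the cells is not given in the labels, and its part in the other differences was not tested.

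In control cells most of the genes called lower were also lower, but few passed. limma called 9 genes there (0.0589%): Cfb, Acod1, Lox, Aoah, Saa3, Tgfbi, Ikbke, Tlr2 and Tmod1, all 9 among the 109 (0 to 23 genes with 1 array left out, 0 without knockout-labelled control array 3 or wild-type control array 3, 3 without knockout-labelled control array 1, 4 without knockout-labelled ischemia array 1, 5 without wild-type ischemia array 1 or 3, and 23 without wild-type control array 2). The 99 genes called lower had a median difference of -1.31 after ischemia and -0.75 in control cells. Of these, 98 were also lower in control cells, the exception being I830077J02Rik (0.06), and 98 were more negative after ischemia, the exception being Aoah (-1.77 against -1.84). Since the 99 were chosen for their difference after ischemia, a smaller difference elsewhere can follow from the choice alone. The interferon list, also chosen with earlier results known, had a median of -0.94 in control cells with 42 of 44 lower, and all 44 were more negative after ischemia. Of all 15273 genes tested, 7519 were lower in control cells and 7390 were more negative after ischemia. The control median was -0.15 for interferon production and signalling (-0.17 after ischemia), -0.21 for NF-kB (-0.28) and -0.43 for inflammatory genes (-0.49). It was -0.10 for Toll-like receptor (-0.27), -0.08 for antigen-processing (-0.54) and -0.02 for complement genes (-0.45). Cell division genes went the other way, with -0.30 in control cells (24 of 27 lower) and 0.01 after ischemia. Only 2 of these 27 were more negative after ischemia, and their list mean was highest in wild-type control array 2 (8.14).

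Whether the difference changed with ischemia was tested directly. Over all 12 arrays without a block, limma called 0 genes for the difference of the genotype differences, with 443 at an unadjusted p under 0.05 (2.90%). Same-numbered arrays of a genotype deviated together, so the ischemia change was also taken within each genotype and number, a block added after the values were seen. With this block limma called 47 genes (0.308%), 45 with a more negative difference after ischemia (0.295%) and 2 with a more positive one, and 1291 (8.45%) had an unadjusted p under 0.05. Of the 47, 18 were interferon-list genes and 27 were among the 109. The 18 include Ifit1, Mx1 and Mx2, which lay under the limit for dim genes in every knockout-labelled ischemia array. Their change in the knockout-labelled arrays is therefore uncertain. Ccl5 changed with ischemia by 2.0, 1.57 and 1.16 in wild-type pairs 1 to 3 and by -0.24, -0.37 and -0.45 in knockout-labelled pairs (-1.93, SE 0.18, limma adjusted p = 0.000591 with the block), and Irf7 by 2.21, 1.58 and 1.08 against -0.05, -0.14 and -0.19 (-1.75, SE 0.22, 0.00226). Zbp1 changed by 1.72, 1.60 and 1.13 against -0.10, -0.14 and -0.16 (-1.62, SE 0.16, limma adjusted p = 0.000591 with the block).

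Outside the interferon list the block also called Timd4, whose changes were 1.27, 1.46 and 1.36 in the wild type against -0.02, -0.19 and 0.18 (-1.37, limma adjusted p = 0.000591), AW112010 (-1.52, 0.00281) and Cfb (-1.70, 0.0102). The 2 genes with the opposite sign were Chek1, a DNA damage checkpoint kinase (0.85), and Hells, a chromatin remodeller of dividing cells (0.85), each called in 1 of 6 fits with a pair left out. The number called was 20 to 49 when 1 pair of arrays was left out (25, 20 and 27 without knockout-labelled pairs 1 to 3, 26, 30 and 49 without wild-type pairs 1 to 3), and 16 genes were called in all 6 such fits. Ccl5, Irf7, Zbp1, Timd4 and AW112010 were among those 16, and Cfb was not (up to 0.0591). That the numbers mark pairs rests on the data, since no label explains the numbering.

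**Figure D4:**
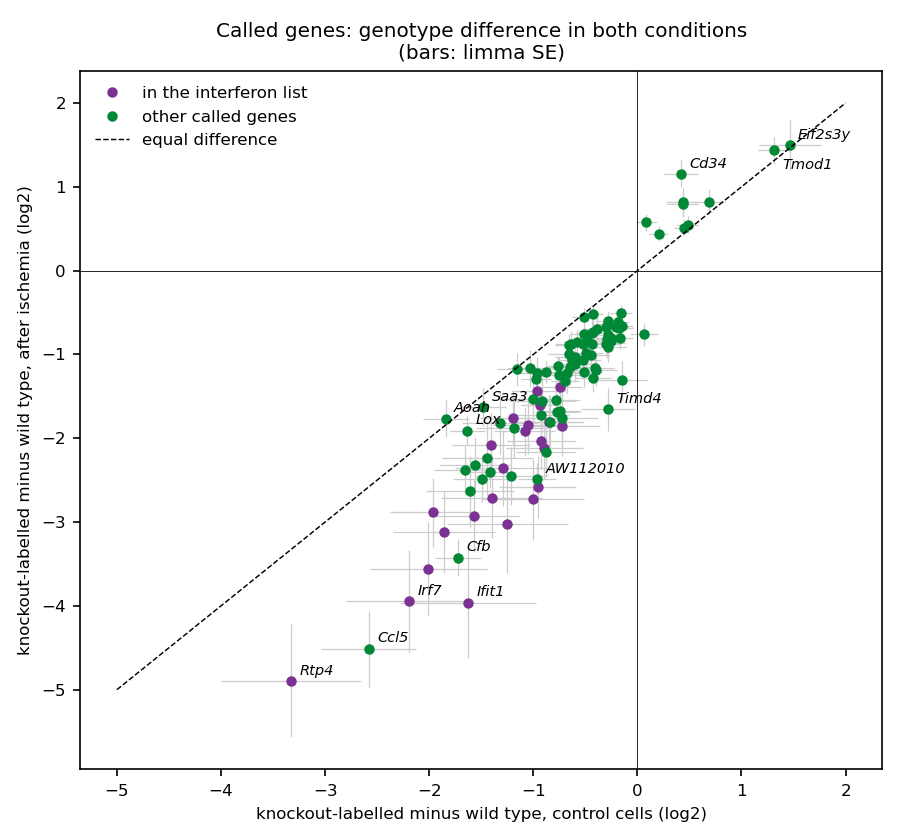
Genotype difference of the 109 called genes in control cells (horizontal) and after ischemia (vertical), both log2 with limma standard errors as bars; purple points are interferon-list genes and the dashed line marks equal differences. Nearly all lower genes sit below the line, as Rtp4 at -3.33 in control cells and -4.90 after ischemia, while Tmod1 and Eif2s3y lie close to it.

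No member of the 10 lists of cell type markers was called, though Cd34 and Timd4, named above and on none of these lists, also mark certain endothelial and macrophage cells. Wild-type array 2 stood apart in some lists. The 11 microglia and macrophage identity markers were all bright, with list means of 10.24 to 10.31 in the knockout-labelled ischemia arrays and 10.45 to 10.87 in the wild type, 9 lower and 0 called. Of 11 monocyte and border macrophage markers on the array 8 were tested and 0 called, with means of 7.85 to 7.99 against 7.63 to 8.55, the highest in wild-type array 2. The 11 tested cardiac myocyte markers, relevant to the wording of the extraction protocol, had means of 5.92 to 6.09 against 5.89 to 5.98, below every array's median, and 0 were called. Among neutrophil, lymphocyte, astrocyte, oligodendrocyte, neuron, endothelial and fibroblast markers 0 were called, and their list means over all named markers lay between 5.37 and 6.82. Higher in the knockout-labelled arrays were 9 of 10 fibroblast and mural (median 0.14, up to 0.81), 6 of 7 endothelial (0.18) and 10 of 11 cardiac myocyte markers (0.093), and lower were 7 of 11 oligodendrocyte markers (-0.22). Array 2 was the highest wild-type ischemia array for 73 of the 99 genes called lower (73.7%) and for 35.2% of all genes tested. The part of its cell makeup in the genotype difference was not tested, and without both wild-type arrays numbered 2 limma called 295 genes, 234 lower and 61 higher, including 101 of the 109.

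**Figure D5:**
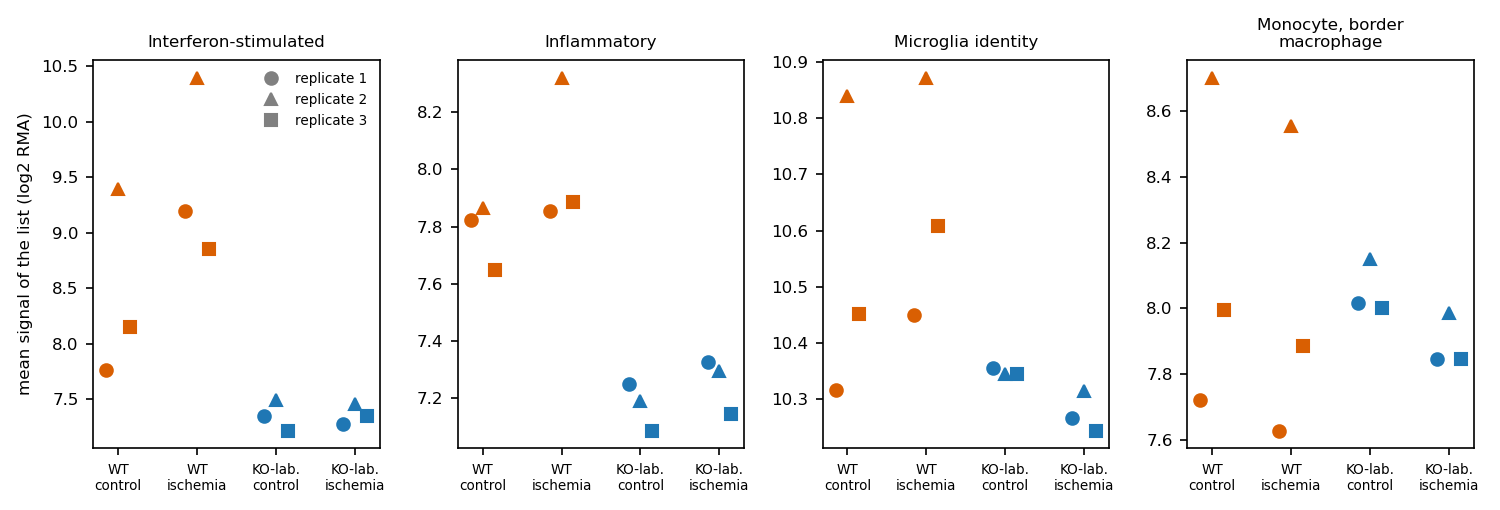
Mean signal (log2 RMA) over the tested members of 4 gene lists in each of the 12 arrays, by group, with the replicate number as the symbol; each panel has its own vertical scale. In the interferon and inflammatory panels all knockout-labelled arrays lie below all wild-type arrays, and wild-type array 2 (triangle) is the highest of the ischemia arrays in every panel.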

How the data were processed

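Total RNA of 12 microglia samples was measured on Affymetrix mouse gene arrays, 3 in each of 4 groups, with groups taken from sample titles. The deposited values are log2 signals. Per the submitters' processing notes, the authors ran RMA in Affymetrix Expression Console 1.1. For the probes' annotation, the genome build was not given in the sources used here. RMA works on all arrays together, and its values carry no detection calls. The table held 35557 probe sets, of which 21789 carried 1 gene symbol, 1621 several and 12147 none here; 21698 of the 21789 were matched to RefSeq (GRCm38.p6) by Entrez number for current symbols. For 999 genes with several probe sets the brightest by mean over 12 arrays was kept. Genes whose mean lay below the 30th percentile, 5.36 log2 units, were left out.

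limma 3.58.1 (R 4.3.3) fitted 1 mean per group over the 12 arrays with moderated variances, and p-values were adjusted by the Benjamini-Hochberg method over 15273 genes, with calls at an adjusted p under 0.05. The control comparison and the difference of the genotype differences came from the same fit. The fit without a block was tested on simulated arrays with independent errors and the same spread in every group, unlike these data. The fit with a block was not simulated. The number of arrays, 3 per group, limits the precision.

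The members, gene lists and tests were chosen with earlier results of these data known, and no list is independent evidence. Named were the 15 largest called falls and rises without overlap (rises filled up by smallest p), Tlr4, and up to 5 called members of each list or the 4 with the smallest p; interferon, Toll-like receptor, NF-kB, inflammatory, MHC and complement genes could be named by role. The text gives a selection of these. The genes just at the threshold, Arg1 and Mrc1, the sex-linked genes, H2-M2, H2-T24, H2-Q4, Chek1, Hells and I830077J02Rik were chosen after their values were seen.

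Whether array numbers pair arrays was checked through the correlation of each array's deviations from its group mean. Same-numbered arrays of a genotype correlated at 0.48, 0.73 and 0.48 in the wild type and 0.36, 0.32 and 0.49 in the knockout-labelled arrays. Unlike-numbered arrays ran from -0.62 to 0.40 in the wild type and from -0.44 to 0.22 in the knockout-labelled arrays. That numbers pair arrays within a genotype rests on these values alone, and the margin was narrow for wild-type array 1. Between genotypes after ischemia the same-numbered values were -0.15, 0.07 and 0.33. Unlike-numbered ones ran from -0.33 to 0.34, so same-numbered arrays did not consistently stand out there. Alternatives covered the arrays fitted, blocks, filters, normalization, probe set choice, eBayes options and each array left out. A block within each genotype and leaving out both wild-type arrays numbered 2 were added after seeing the data.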

Additional observations from a re-analysis of the deposited data

Results flagged for a closer look

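With same-numbered arrays paired within each genotype, limma called 47 genes for a change of the genotype difference with ischemia (adjusted p under 0.05). This tests the difference itself. The pairing was inferred from these same values and added after they were seen, and no label gives it. In all 6 fits with a pair left out, 16 genes were called. In 45 of the 47 genes the difference was more negative after ischemia. Over the 44 interferon-stimulated genes, a list chosen with earlier results known, the median change of the difference was -0.95, with all 44 below 0. Over all 15273 genes tested the median was 0.01, with 7390 below 0. Ifit1, Mx1 and Mx2, among the 44 and the 47, lay under the limit for dim genes in every knockout-labelled ischemia array. Their change there is uncertain, and the median was not taken again without them. The spread of the pair changes was larger in the wild type (median SD over these 44 genes 0.36) than in the knockout-labelled arrays (0.20), while the fit uses 1 shared spread per gene. Without the block 0 genes were called, with 443 at an unadjusted p under 0.05.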

How the results depend on the processing

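Only 3 arrays per group and no detection calls limit what low signals show. The count of 109 genes (99 lower, 10 higher) stayed within 1.5 times under 9 settings, from 87 with trended, robust variances to 151 with a random block of genotype and number; the 6 ischemia arrays alone gave 95, of which 80 were among the 109. With the replicate number as a block over the 12 arrays, limma called 236 genes, 210 lower and 26 higher, and 31 in control cells. Same-numbered arrays, however, stood out consistently only within a genotype. A replicate block within the 6 ischemia arrays gave 122. Leaving out both wild-type arrays numbered 2 gave 295 genes, 234 lower and 61 higher, with 100 in control cells and 1 for the difference of the genotype differences. A replicate block within each genotype raised that last count from 0 to 47 over the 12 arrays. The random block gave 16 higher genes and 14 in control cells, and median centring gave 5 higher genes. With 1 array left out the counts were 25 to 158 in all, 23 to 142 lower, 2 to 16 higher, 0 to 23 in control cells and 0 to 1 for the difference of differences. The cause of these shifts was not tested.

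List medians moved by more than their spread without both wild-type arrays numbered 2 in complement (-0.15), hypoxia-inducible factor targets (0.090), cell death (-0.043) and lysosome (-0.097), and with quantile normalization in hypoxia-inducible factor targets (0.10) and cell death (0.056). With 1 array left out the medians ran from -0.67 to -0.15 in complement, -0.39 to -0.27 in NF-kB, 0.040 to 0.10 in hypoxia-inducible factor targets, -0.066 to 0.018 in the respiratory chain, -0.30 to -0.043 in liver X receptor targets, -0.051 to 0.061 in cell death, -0.097 to -0.031 in lysosome and -0.092 to 0.016 in matrix genes. The interferon median stayed between -2.13 and -1.48. The 148 genes named by rule include many that were not called and so could not lose a call. Among the 148, 29 lost their call without knockout-labelled ischemia array 1, 29 without array 3 and 19 without array 2, and 0 to 16 under each other setting. The difference of the genotype differences cannot be fitted on the 6 ischemia arrays.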
